A study of Mus musculus with 20 samples.

Results

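The Phlda genes (Phlda1, Phlda2 and Phlda3), the immediate early response genes Ier2, Ier3 and Ier5, the nuclear factor gene Csrnp1 and the Zfp36 genes (Zfp36, Zfp36l1 and Zfp36l2) were examined in mouse epididymal cells under fluid flow and after silencing of a cilium gene. They were taken by their symbols from the deposited abundance tables, 10 of the 21509 genes listed, and each symbol matched 1 gene in each table. Their values were not used to choose them within this work, but the set was drawn up with earlier results of these libraries known.

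The cells were DC2, a single immortalised mouse line derived from principal cells of the distal caput epididymis. The study's text does not say how the line was immortalised, and no genotype is stated for it. In the first experiment, 6 libraries came from cells held for 3 h under flow at a shear stress of 1 dyn/cm2 and 6 from cells held without it (static). In the second, 4 libraries came from cells given siRNA to silence Ift88, the gene of an intraflagellar transport protein needed to build cilia, and 4 from cells given a control siRNA. The study's methods kept cells of the first experiment in low-serum medium beforehand. The siRNA timeline in those methods, given for the calcium assays, changed to low-serum medium only on the day before use. The study's text states that both siRNA groups were placed under flow, the labels do not name flow for them, and siRNA-treated static cells were not analysed here. One library is called flow by its title but static by its treatment field. It was taken as flow replicate 6, and results are given with it, without it and with it moved to the static group. The design text speaks of 4 experiments for the flow comparison, whereas 6 libraries a group are labelled, and which libraries came from one experiment is not given. The labels do not say that replicates were separate cultures, so p-values measure the spread between these libraries, which may be technical.

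The measure is TPM, a length-corrected share of transcripts that sums to 1000000 in each library. TPM keep no read total, so the counting error behind a value is unknown. Between 15543 and 16562 genes were above 0 in the libraries of the flow experiment. In the siRNA experiment 15292 to 15382 were in control siRNA libraries and 15713 to 16682 in Ift88 siRNA libraries, without overlap. The principal cell label was checked against epithelial markers, of which Krt18 (23.2 to 159 TPM) was present in all 20 libraries, while Aqp9 did not exceed 0.413 TPM, Lcn8 0.225 TPM, Epcam 0.332 TPM, Krt8 1.17 TPM and Cdh1 1.73 TPM. Summed markers of clear cells, basal cells, leukocytes, endothelium and germ cells stayed at or under 1.37 TPM, and those of fibroblasts and smooth muscle at or under 4.02 TPM. In bulk RNA, fewer cells expressing a gene and less RNA per cell cannot be told apart.

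Immediate-early genes are transcribed within minutes of a growth factor, stress or mechanical stimulus, without new protein synthesis, and many of their transcripts are short and quickly degraded. PHLDA proteins are small proteins built around a pleckstrin homology-like domain that binds membrane phosphoinositides, and PHLDA3 is known as a p53 target that holds back AKT. IER proteins and CSRNP1 are induced nuclear or signalling factors, whereas the ZFP36 proteins, of which ZFP36 is also called tristetraprolin, bind AU-rich elements in the 3′ untranslated regions of transcripts and recruit the CCR4-NOT deadenylase that starts their decay.

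Under flow, 8 of the 9 members that passed the filter on low values had a higher level than static cells in every one of the 6 same-numbered pairs of libraries. They were Phlda1, Ier2, Ier3, Ier5, Csrnp1, Zfp36, Zfp36l1 and Zfp36l2, at 1.66 to 6.36 times the static level by mean TPM, and 1.98% of all genes tested were higher in every pair. Phlda3 was at 0.943 times its static level, and Phlda2 was at most 1.36 TPM throughout and left out by the filter. The test was limma on log2(TPM + 1), run on the 11388 genes averaging at least 1 TPM. A gene was called when its Benjamini-Hochberg adjusted p was under 0.05 and its fold change on that scale was over 1.5, a scale that understates changes of low genes. Phlda1 and Ier2 were called higher, 2 of 9 against 0.105% of all genes (12 genes). The same-numbered flow and static libraries deviated together, and with the replicate number as a block 7 of 9 were called higher, all but Ier5 and Phlda3, against 0.597% of all genes (68 genes). The median log2 fold change of the 9 was 1.64, beside -0.026 over all genes tested. In 5 of the 9 (Phlda1, Ier2, Csrnp1, Zfp36 and Zfp36l1) every flow library lay above every static library, which held for 0.492% of all genes.

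**Figure D1:**
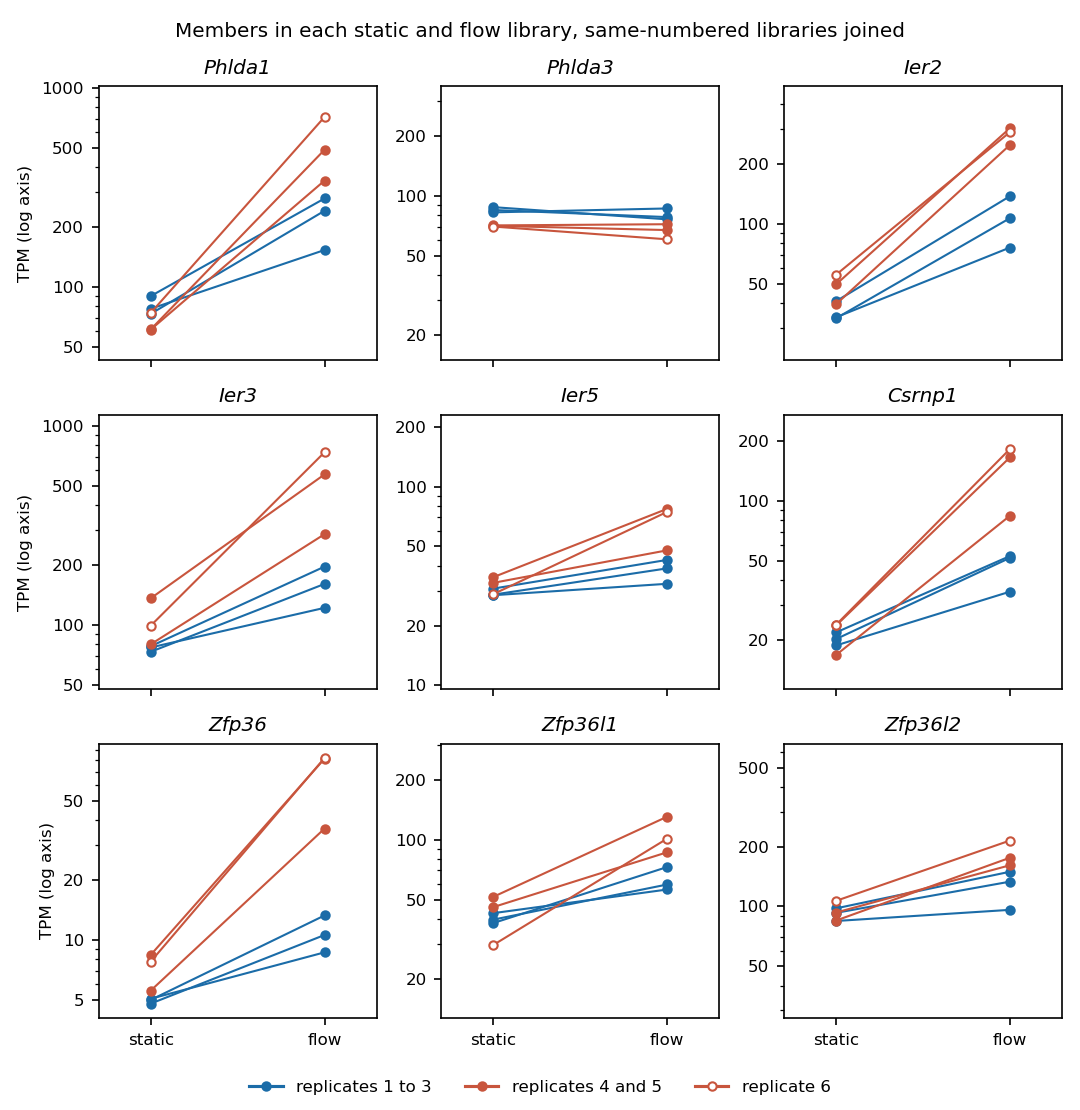
TPM (log axis, each panel spanning the same ratio) of 9 members in the 6 static and 6 flow libraries, 1 point per library, with same-numbered libraries joined. The lines rise in every pair for the 8 members other than Phlda3, the steepest of them in replicates 4 to 6, and the open points are replicate 6, whose flow library has conflicting labels.

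Phlda1 (ENSMUSG00000020205, GRCm38 chromosome 10, 111506286 to 111508645, plus strand, 2 exons), a growth factor-induced gene linked to survival signalling, was called higher under flow. Its flow libraries held 153 TPM at the lowest, 311 at the median and 716 at the highest, and its static libraries 61.1, 73.7 and 90.0 TPM. Every flow library was above every static one, with flow replicate 2 the lowest and flow replicate 6 the highest. The means were 371 ± 203 TPM (SD, n = 6) and 72.9 ± 10.9 TPM (SD, n = 6), a log2 fold change of 2.17 (standard error, SE, 0.28 and limma adjusted p = 0.00801). With the replicate block the adjusted p was 0.00366. In each of the 12 fits without 1 library Phlda1 kept its call, with a log2 fold change of 1.94 (limma adjusted p = 0.00339) without flow replicate 6. Counting that library as static gave 1.47, and Phlda1 was no longer called. It also lost its call with no filter on low TPM (limma adjusted p = 0.0628), and with the block and pair 1 left out.

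Phlda3 (ENSMUSG00000041801, chromosome 1, 135766119 to 135769136, plus strand, 2 exons) ran from 60.5 through a median of 74.1 to 86.5 TPM in flow libraries and from 70.1 through 76.9 to 87.8 TPM in static cells. The groups overlapped, and 2 pairs were higher and 4 lower under flow. The log2 fold change was -0.09 (SE 0.09, limma adjusted p = 0.999, or 0.584 with the block), so that no difference larger than the spread was detected. Its static libraries split by replicate number, with 82.6 to 87.8 TPM in replicates 1 to 3 and 70.1 to 71.1 TPM in replicates 4 to 6.

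Phlda2 (ENSMUSG00000010760, chromosome 7, 143501545 to 143503150, minus strand, 2 exons), an imprinted gene known for limiting placental growth, was listed at 0 in 3 flow and 3 static libraries. The other flow libraries held 0.113, 0.241 and 1.36 TPM and the other static libraries 0.380, 0.491 and 0.539 TPM. A two-sided exact permutation test over the 12 libraries gave p = 0.968. Levels this low do not allow a comparison.

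Ier2 (ENSMUSG00000053560, chromosome 8, 84661331 to 84662852, minus strand, a single exon), which encodes a nuclear protein induced by growth factors, was the other called member. It held 76.2 TPM at the lowest, 194 at the median and 304 at the highest under flow, against 33.6, 40.3 and 55.7 TPM in static cells. The groups did not overlap, and flow replicates 4, 5 and 6 held 250 TPM or more while replicates 1 to 3 were at or below 138 TPM. The log2 fold change was 2.01 (SE 0.31, limma adjusted p = 0.0160, or 0.000599 with the block). Ier2 kept its call in 7 of the 12 fits without 1 library, losing it without static replicate 1, 2, 3 or 4 or flow replicate 4, with a limma adjusted p of at most 0.0619. Its log2 fold change was 1.86 (limma adjusted p = 0.0343) without flow replicate 6 and 1.47, not called, when that library was counted as static. With no filter on low TPM it was not called either (limma adjusted p = 0.1035).

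Ier3 (ENSMUSG00000003541, chromosome 17, 35821684 to 35822923, plus strand, 2 exons), also named IEX-1 and known to act on ERK signalling and stress-induced death, reached the highest single level of the members under flow. Its flow libraries ran from 122 through a median of 241 to 739 TPM and its static libraries from 73.3 through 79.0 to 136 TPM. The groups overlapped, because flow replicate 2 lay below static replicate 5. limma gave a log2 fold change of 1.64 (SE 0.38, adjusted p = 0.145), and the gene was called with the replicate block (limma adjusted p = 0.00774).

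Ier5 (ENSMUSG00000056708, chromosome 1, 155096361 to 155099636, minus strand, a single exon), whose protein is known to bring the phosphatase PP2A to the heat shock factor HSF1, had the smallest log2 fold change of the Ier genes. It ran from 32.4 through 45.3 to 77.3 TPM in flow libraries and from 28.4 through 29.8 to 35.1 TPM in static cells. The groups overlapped at flow replicate 2, and only flow replicates 5 and 6 exceeded 70 TPM. The log2 fold change of 0.68 (SE 0.18, limma adjusted p = 0.362, or 0.0575 with the block) was not called in either fit.

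Csrnp1 (ENSMUSG00000032515, chromosome 9, 119971163 to 119984658, minus strand, 4 exons in the longest coding transcript) encodes a cysteine- and serine-rich nuclear protein that can activate transcription. It ran from 35.1 through 68.7 to 183 TPM in flow libraries and from 16.9 through 21.1 to 23.9 TPM in static cells. Every flow library was above every static one. By limma the log2 fold change was 1.89 (SE 0.34, adjusted p = 0.0565), just over 0.05, and with the replicate block it was called (limma adjusted p = 0.00643). Its relative Csrnp2 averaged 6.70 TPM in flow and 8.15 TPM in static libraries (limma adjusted p = 0.999), and Csrnp3 was under the filter.

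Zfp36 (ENSMUSG00000044786, chromosome 7, 28376784 to 28380253, minus strand, 2 exons) was the lowest of its family and the one with the largest ratio of mean TPM, 6.36. Flow replicates 1, 2 and 3 held 13.3, 8.65 and 10.6 TPM, flow replicates 4, 5 and 6 held 36.3, 81.5 and 82.2 TPM, and the static libraries ran from 4.78 through 5.31 to 8.41 TPM. The groups did not overlap, but flow replicate 2 exceeded static replicate 5 by a small margin. The log2 fold change of 1.97 (SE 0.50, limma adjusted p = 0.250) was called with the replicate block (limma adjusted p = 0.0216).

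Zfp36l1 (ENSMUSG00000021127, chromosome 12, 80107754 to 80113013, minus strand, 2 exons) and Zfp36l2 (ENSMUSG00000045817, chromosome 17, 84183931 to 84187947, minus strand, 2 exons) encode proteins with the same paired zinc fingers. Zfp36l1 ran from 56.1 through 79.6 to 131 TPM in flow libraries and from 29.6 through 41.2 to 51.6 TPM in static cells, with no overlap. Zfp36l2 ran from 96.2 through 155 to 215 TPM in flow libraries and from 84.5 through 93.1 to 107 TPM in static cells, overlapping at flow replicate 2. Their log2 fold changes were 0.97 (SE 0.19, limma adjusted p = 0.0714) and 0.69 (SE 0.15, limma adjusted p = 0.106). Both were called with the replicate block, at limma adjusted p = 0.0125 and 0.0109.

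Leaving out a single library or a pair changed several of these calls. Without flow replicate 2, 8 members were called (the 8 named above) among 87 genes in all, and with the block and pair 1 left out only Ier2 was called, among 8 genes. With the block and pair 2, 3, 4, 5 or 6 left out, 8, 7, 6, 5 and 6 members were called. Genes called in all numbered 193, 51, 38, 34 and 41 in the same order. The fits with a pair left out were added after the data were seen. Without flow replicate 6, Phlda1 and Ier2 remained the called members, among 13 genes in all, and the 8 higher members had log2 fold changes from 0.56 (Ier5) to 1.94 (Phlda1). With flow replicate 6 moved to the static group, limma called 0 members and 0 genes, with 181 genes at an unadjusted p under 0.05.

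Flow and static libraries differed more in replicates 4 to 6 than in replicates 1 to 3 for most members. The first principal component of the static libraries alone (55.0% of their variance) placed replicates 1 to 3 at -23.4 to -11.4 and replicates 4 to 6 at 1.47 to 26.4, so the sets did not overlap on it without flow. They were not sharply divided, since replicate 4 (1.47) lay nearer to replicate 2 (-11.4) than to replicate 5 (19.8). The labels name no batch. Zfp36 was 1.71 to 2.66 times its static level in pairs 1 to 3 and 6.53 to 10.6 times in pairs 4 to 6. Csrnp1 was 1.86 to 2.56 and 5.01 to 7.65 times, Phlda1 1.97 to 3.30 and 5.61 to 9.66 times, and Ier2 2.24 to 3.37 and 5.21 to 6.32 times the static level in the same order. Ier3, Ier5 and Zfp36l2 also had every difference of pairs 4 to 6 above every difference of pairs 1 to 3, so that 7 of 9 members did, against 2.48% of all genes. The exceptions were Zfp36l1, whose pair 1 lay just above pair 4, and Phlda3.

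**Figure D2:**
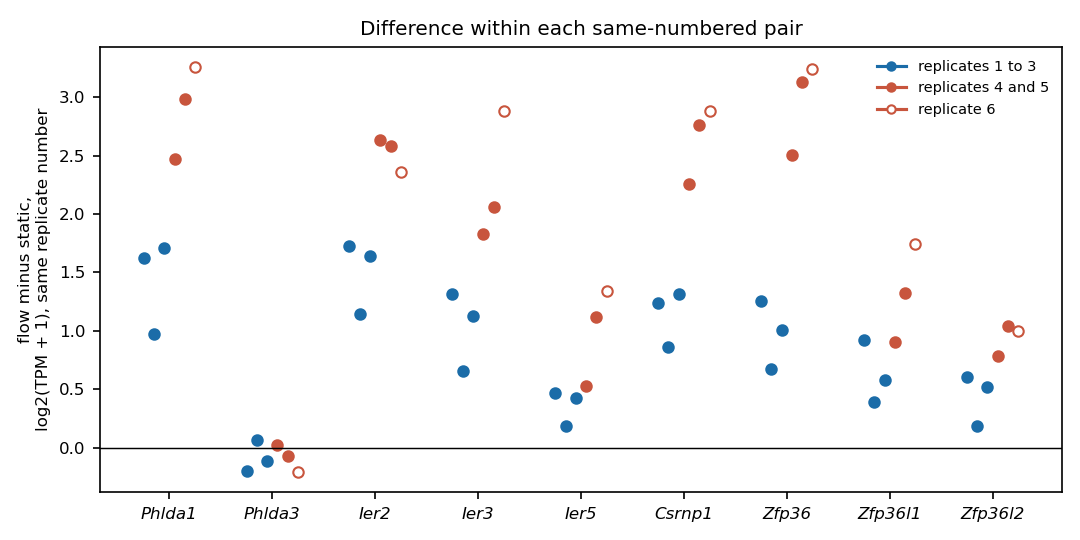
Difference of log2(TPM + 1) between the flow and static library of each replicate number, 1 point per pair, for 9 members. Points of replicates 4 to 6 lie above those of replicates 1 to 3 for 7 members, overlap for Zfp36l1 and surround 0 for Phlda3.

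The difference itself was tested as the flow effect in replicates 4 to 6 minus that in replicates 1 to 3, with limma over all genes. An earlier description of these same libraries named this split, so the sets were not chosen independently of the values tested. Without the block, 0 of 9 members and 0 of 11388 genes (0%) were called, with 8 of 9 members and 238 genes at an unadjusted p under 0.05. With the replicate block, 4 of 9 members were called, against 0.158% of all genes. They were Zfp36 (1.99, SE 0.22, limma adjusted p = 0.0130), Csrnp1 (1.495, SE 0.18, limma adjusted p = 0.0134), Phlda1 (1.47, SE 0.22, limma adjusted p = 0.0422) and Ier2 (1.02, SE 0.16, limma adjusted p = 0.0473). Fitted within each set, 0 members were called in replicates 1 to 3 (0.0443% of genes, with 187 genes at an unadjusted p under 0.05) and 6 in replicates 4 to 6 (0.49% of genes). With the block inside each set, an alternative added after the data were seen, 6 members were called in replicates 1 to 3 and 8 in replicates 4 to 6. They were among 52 of 11298 and 148 of 11424 genes called. Krt18 was at 23.2 to 31.7 TPM in all libraries of replicates 1 to 3 and at 63.0 to 111 TPM in all libraries of replicates 4 to 6, and the mitochondrial share of TPM was 6.06% to 9.60% and 4.40% to 7.36%. Their part in the difference was not tested.

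Shares within each family are given as a description, without a test. Phlda1 made up 46.2% to 51.2% of the summed Phlda TPM in static cells and 64.0% to 92.2% under flow, with Phlda3 making up nearly all the rest and no overlap between the groups. Zfp36 made up 3.48% to 5.80% of its family's TPM in static cells and 5.20% to 21.0% under flow, with overlapping ranges and its largest shares in replicates 4 to 6. Zfp36l2 was the leading Zfp36 gene in every library of this experiment, at 58.6% to 74.1% in static cells and 45.3% to 65.5% under flow. Ier3 led the Ier genes throughout (52.2% to 61.6% static, 49.0% to 66.9% flow), while the share of Ier5 was 15.7% to 21.54% in static cells and 6.77% to 14.1% under flow.

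By mean level in static cells the order was Zfp36l2 (93.4 TPM), Ier3 (90.6 TPM), Phlda3 (77.9 TPM), Phlda1 (72.9 TPM), Ier2 (42.3 TPM), Zfp36l1 (41.2 TPM), Ier5 (30.7 TPM), Csrnp1 (20.9 TPM), Zfp36 (6.10 TPM) and Phlda2 (0.235 TPM). Neighbouring ranges overlapped among the first 4, between Ier2 and Zfp36l1 and between Zfp36l1 and Ier5. Phlda1 to Ier2, Ier5 to Csrnp1, Csrnp1 to Zfp36 and Zfp36 to Phlda2 did not overlap. Under flow the order was Phlda1 (371 TPM), Ier3 (346 TPM), Ier2 (194 TPM), Zfp36l2 (155 TPM), Csrnp1 (95.6 TPM), Zfp36l1 (84.4 TPM), Phlda3 (73.5 TPM), Ier5 (52.3 TPM), Zfp36 (38.7 TPM) and Phlda2 (0.285 TPM). Every neighbouring range overlapped except that of Zfp36 with Phlda2. Phlda1 thereby lay above 96.6% of the genes tested under flow and above 79.8% in static cells, and Zfp36 above 63.4% and 17.2%.

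**Figure D3:**
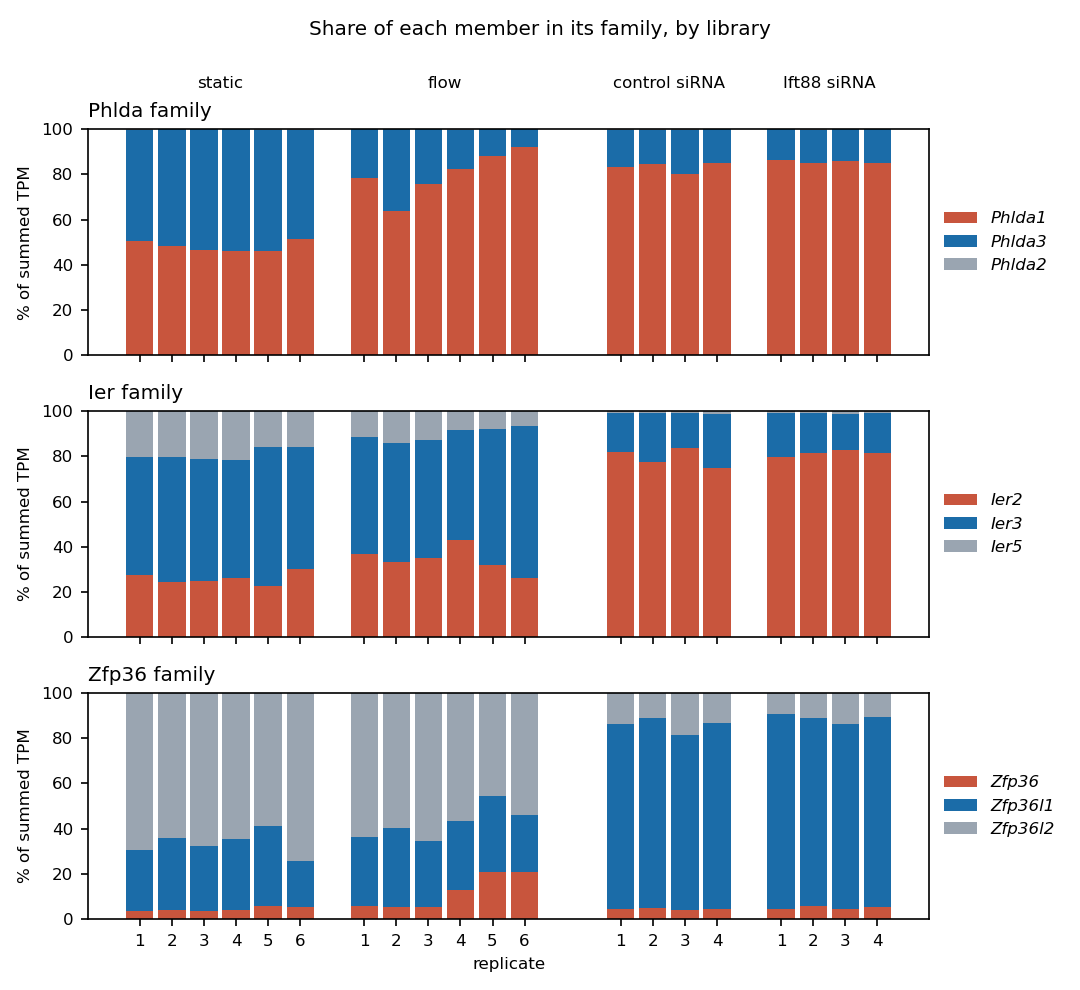
Stacked bars of the share (%) of each member in the summed TPM of the Phlda, Ier and Zfp36 families, 1 bar per library in all 20 libraries. Shares of Phlda1 are larger in flow libraries (64.0% to 92.2%) than in static ones, those of Zfp36 overlap and reach 21.0% under flow, and the siRNA libraries, from a separate experiment, are dominated by Phlda1, Ier2 and Zfp36l1.

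The 8 members that were higher in every pair also ranked the flow libraries alike. Over the 12 libraries their 28 pairwise Pearson correlations of log2(TPM + 1) ran from 0.837 to 0.986 (median 0.947), and over the 6 flow libraries alone from 0.818 to 0.994. Over the 6 static libraries alone they ran from -0.874 to 0.939 (median 0.237). Phlda3 went the other way among the flow libraries, with correlations of -0.998 to -0.842 with the other 8. These are descriptions over libraries that share the flow contrast and the replicate sets. The most similar gene outside the set, over the 12 libraries, was Dusp5 for Phlda1 (r = 0.994), Egr1 for Ier2 (0.988), Errfi1 for Ier3 (0.994), Fosl2 for Ier5 (0.993), Junb for Csrnp1 (0.993), Arc for Zfp36 (0.993), Adamts1 for Zfp36l1 (0.980), Plk2 for Zfp36l2 (0.982) and Nt5c3b for Phlda3 (0.960).

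The gene models of the members were compact. In GENCODE M21 on GRCm38, 9 of the 10 have 1 or 2 exons in their longest coding transcript, as do 6.85% of the genes tested with a model, and the median gene spans 3147 bases against 23749. The AU-rich heptamer TATTTAT, the core of the element that ZFP36 proteins bind, occurs on the sense strand of the 3′ untranslated region of 7 of the 10 members (all but Phlda3, Ier2 and Ier5), against 30.1% of the genes tested. The longer TTATTTATT, which contains it, occurs in 5 members (Phlda1, Csrnp1 and the 3 Zfp36 genes) against 8.05% of the genes tested. Ier3 holds 4 heptamers, and Zfp36, Zfp36l1 and Zfp36l2 hold 3 each. Ier2, which was called, holds none, and Phlda2, which was hardly detected, holds 1. A match says only that these letters are present. The sites below are shown because they stand in transcripts of an AU-rich binding protein and of members with strong responses. Each is a stretch of 28 bases of the 3′ untranslated region read 5′ to 3′ on the gene's strand, with heptamers in capitals, for Zfp36 at chr7:28376959-28376986, Ier3 at chr17:35822489-35822516, Phlda1 at chr10:111508258-111508285 and Csrnp1 at chr9:119972060-119972087.
Zfp36: cttTATTTATgacgacttTATTTATtgt
Ier3: taaTATTTATgTATTTATgtatatcctc
Phlda1: cttTATTTATggacctttggaaggatca
Csrnp1: attTATTTATttttttatgtttttctgt

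Promoters from RefSeq on GRCm38.p6, 250 bases before to 50 after the start, were found for 7 of the 10 members (10 promoters), not for Phlda1, Ier2 and Zfp36l2. They were searched on both strands for the TATA box TATAAA, the cyclic AMP response element TGACGTCA, the AP-1 motif TGANTCA, the serum response CArG box, an NF-kB site and a p53 half-site. Among all 32851 promoters these occur in 13.6%, 1.79%, 7.81%, 1.63%, 5.80% and 8.36%. The CArG box was found in Zfp36, the AP-1 motif in 1 of the Csrnp1 promoters and in Zfp36l1, TATAAA in Phlda2 and Zfp36l1, and the p53 half-site in Ier5. TGACGTCA and the NF-kB site were in none of the 10, and none of the 6 was in Phlda3 or Ier3. One match is shown for each of the genes that were higher in every pair and had any. A second TGANTCA match in Csrnp1, 14 bases before the start, and TATAAA in Zfp36l1, 29 bases before it, are not shown. Each is read 5′ to 3′ on the gene's minus strand with the motif in capitals, for Zfp36 at chr7:28379247-28379316 (CArG box), Csrnp1 at chr9:119983089-119983155 (TGANTCA), Zfp36l1 at chr12:80113106-80113172 (TGANTCA) and Ier5 at chr1:155099763-155099832 (p53 half-site). In this order the motifs begin 58, 102, 129 and 166 bases before the start.
Zfp36: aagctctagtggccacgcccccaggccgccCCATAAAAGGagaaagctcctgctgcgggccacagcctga
Csrnp1: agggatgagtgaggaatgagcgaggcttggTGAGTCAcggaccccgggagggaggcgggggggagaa
Zfp36l1: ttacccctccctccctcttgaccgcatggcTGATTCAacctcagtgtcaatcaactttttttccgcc
Ier5: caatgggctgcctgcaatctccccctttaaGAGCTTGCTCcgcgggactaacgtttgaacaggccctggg

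Other genes of the same pathways were counted from 10 lists. Of 24 other immediate-early transcription factors, 21 were tested, and Egr2 and Egr3, under 1 TPM in static cells, passed the filter only through the flow group. Each of the remaining 19 averaged more in flow than in static libraries (median log2 fold change 1.06), as did 38.8% of all genes averaging at least 1 TPM in both groups. Of the 21, 1 was called (Egr1, 377 against 42.5 TPM, log2 fold change 2.98, limma adjusted p = 0.0160) and 11 were called with the block. Those 11 include Egr2, which the flow group alone carried past the filter, so its call adds no support. Of 20 transcripts known to be bound by ZFP36 proteins, 13 were tested, and Csf2 and Cxcl2 passed the filter only through the flow group. The other 11 had a higher mean under flow (median 1.13). Ptgs2, which encodes an inducible cyclooxygenase, was called (21.7 against 3.46 TPM, log2 fold change 2.11, limma adjusted p = 0.0493), and Fos, Myc, Dusp1 and Ptgs2 were called with the block. Fos and Myc stand in both lists.

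The machinery around the ZFP36 proteins was not called. Of 11 CCR4-NOT subunits, 0 were called in either fit, 0 had an unadjusted p under 0.05, and log2 fold changes ran from -0.09 (Cnot11) to 0.11 (Cnot6l). Of 12 other AU-rich element binding proteins and decay regulators, 11 had a higher mean and 0 were called in either fit, with 1 at an unadjusted p under 0.05, and the largest differences were 0.58 for Zc3h12a (limma adjusted p = 0.800) and 0.20 for Zc3h12c (limma adjusted p = 0.999). Of all genes averaging at least 1 TPM in both groups, 38.8% had a higher mean. Of all genes tested, 3.85% had an unadjusted p under 0.05. The 6 kinases of the p38 arm ran from -0.08 to 0.13 (Mapkapk5), with 0 called and 0 at an unadjusted p under 0.05.

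Genes that share a regulator or neighbourhood with the Phlda and Ier members were not called in limma either, with or without the block. Of 16 p53 target genes, 7 had a higher and 9 a lower mean, 3 had an unadjusted p under 0.05, and Cdkn1a (0.32) and Sesn1 (-0.36) differed most. The shares over all genes were 38.8% higher and 3.85% at an unadjusted p under 0.05. The 9 HSF1 and heat shock genes ran from -0.003 to 0.15 (Dnajb1), the AKT pathway genes reached at most 0.06 (Akt1), the 9 tested genes of the imprinted cluster around Phlda2 ran from -0.37 (Cdkn1c) to 0.17, and 0 in these 3 lists had an unadjusted p under 0.05. The relative Ier5l averaged 16.02 TPM in both groups, and Zfp36l3 was under the filter.

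Silencing of Ift88 was tested to ask whether cells under flow with fewer cilia differ in these genes. Ift88 itself was at 1.71, 1.27, 1.28 and 0.917 TPM in the Ift88 siRNA libraries and at 4.21, 4.08, 4.15 and 4.12 TPM in the control siRNA libraries, lower in every one (log2 fold change -1.17, limma adjusted p = 0.00212). Of the 10 members, all of which passed the filter in this table, limma called 0, against 0.223% of all genes (25 of 11209), and 4 members and 1561 genes (13.9%) had an unadjusted p under 0.05. The median log2 fold change of the members was 0.16, beside 0.017 over all genes. Every Ift88 siRNA library lay above every control library for Phlda1 and Csrnp1, which held for 5.79% of all genes. Every Ift88 siRNA library also had more genes above 0 than every control library, and its part in these differences was not tested.

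Csrnp1 was at 188, 177, 150 and 175 TPM with Ift88 siRNA and at 123, 146, 97.7 and 148 TPM with control siRNA. The groups did not overlap, but the lowest treated and the highest control library were close. The means were 172 ± 16.1 TPM (SD, n = 4) and 128 ± 23.4 TPM (SD, n = 4), a log2 fold change of 0.44 (SE 0.12, limma adjusted p = 0.123).

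Phlda1 was at 1375, 1295, 1429 and 1350 TPM with Ift88 siRNA and at 1211, 1215, 1048 and 1183 TPM with control siRNA. All treated libraries were higher. On the log2 scale the difference was 0.23 (SE 0.06, limma adjusted p = 0.127), 1.17-fold and under the 1.5-fold threshold. Phlda1 was the most abundant member, above 99.1% of the genes tested in control cells.

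Zfp36 was at 37.0, 43.0, 31.4 and 37.2 TPM with Ift88 siRNA and at 29.7, 34.7, 24.5 and 30.9 TPM with control siRNA. It was higher in each of the 4 same-numbered pairs, and the groups overlapped because the third treated library lay below the second control library. The log2 fold change was 0.31 (SE 0.11, limma adjusted p = 0.264). Zfp36l1, at 693, 624, 582 and 566 against 568.3, 568.2, 460 and 547 TPM, overlapped and had a log2 fold change of 0.20 (SE 0.08, limma adjusted p = 0.296). Zfp36l2, at 74.5, 82.7, 97.4 and 71.0 against 95.5, 74.5, 110 and 86.5 TPM, overlapped too, with a log2 fold change of -0.16 (SE 0.12, limma adjusted p = 0.566).

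The remaining members overlapped between the siRNA groups. Ier2 was at 869 to 990 TPM with Ift88 siRNA and 747 to 958 TPM with control siRNA (log2 fold change 0.12), and Ier3 at 185 to 219 and 177 to 255 TPM (-0.05). Ier5 was at 10.02 to 15.5 and 7.16 to 12.5 TPM (0.22), Phlda3 at 214 to 237 and 206 to 254 TPM (-0.03) and Phlda2 at 1.07 to 5.48 and 1.47 to 3.00 TPM (-0.07). Their limma adjusted p-values lay at 0.522 and above. In all, 5 members were higher in every same-numbered pair (Phlda1, Ier2, Csrnp1, Zfp36 and Zfp36l1), against 15.9% of all genes.

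**Figure D4:**
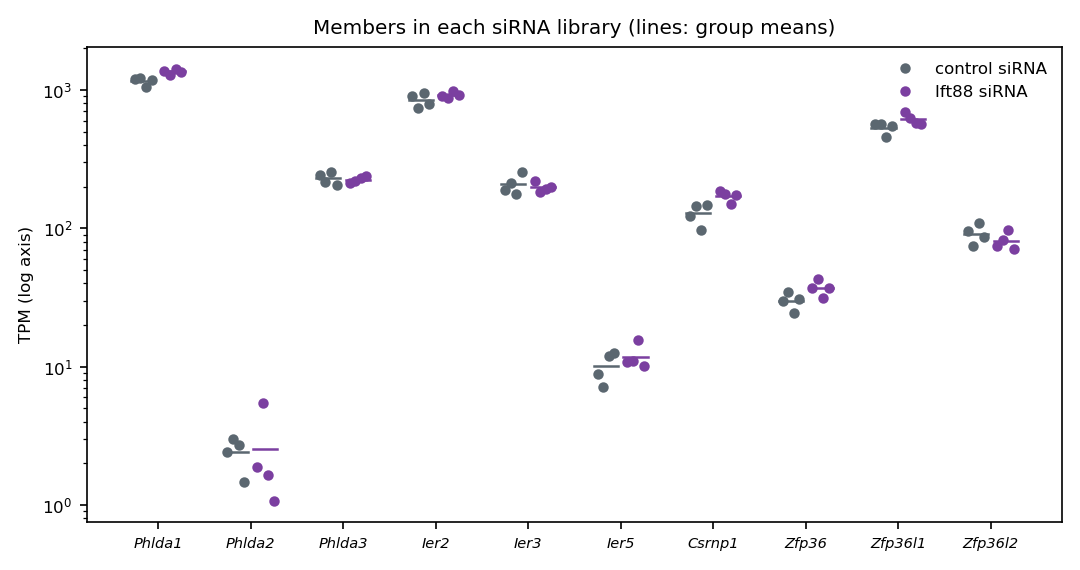
TPM (log axis) of the 10 members in the 4 control siRNA (grey) and 4 Ift88 siRNA (purple) libraries, 1 point per library in replicate order, with a line at each group mean. The groups separate for Phlda1 and Csrnp1, closely for Csrnp1, and overlap for the other 8.

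After silencing, 1 gene of the 10 lists was called. Of 15 transcripts bound by ZFP36 proteins tested here, 14 averaged at least 1 TPM in both groups (not Il6), of which 11 had a lower mean (median log2 fold change -0.20). Ccl20, a chemokine gene, was called lower (4.22 against 7.35 TPM, log2 fold change -0.69, limma adjusted p = 0.0485), with 10 of the 15 at an unadjusted p under 0.05. Of 21 immediate-early factors, 19 had a higher mean (median 0.12) and 0 were called, with 8 at an unadjusted p under 0.05. Srf and Fos differed most, by 0.61 (limma adjusted p = 0.0739) and 0.56 (limma adjusted p = 0.0480, under the threshold in fold), and Srf was called with the replicate block (limma adjusted p = 0.0238). Atf3 (0.51, limma adjusted p = 0.00922) also passed the adjusted p but not the fold. So did Dusp1 (0.56, limma adjusted p = 0.0481) and Cxcl1 (-0.42, limma adjusted p = 0.0137) among the transcripts bound by ZFP36 proteins. The other 8 lists had 0 genes called by limma, with 0 to 5 genes each at an unadjusted p under 0.05. Of all genes averaging at least 1 TPM in both siRNA groups, 54.9% had a higher mean with Ift88 siRNA. Of all genes tested, 13.9% had an unadjusted p under 0.05.

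The siRNA and flow libraries came from separate experiments in separate tables, so no test was made across them. The stated low-serum steps also differed, and their part in the levels was not tested. Side by side, the siRNA libraries had Phlda1 at 1048 to 1429 TPM and Ier2 at 747 to 990 TPM, against 153 to 716 TPM and 76.2 to 304 TPM in the flow libraries, while Ier5 was at 7.16 to 15.5 TPM against 32.4 to 77.3 TPM. Zfp36l1 made up 77.4% to 86.2% of its family's TPM in the siRNA libraries and Ier2 made up 74.9% to 83.6% of the Ier genes.

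**Figure D5:**
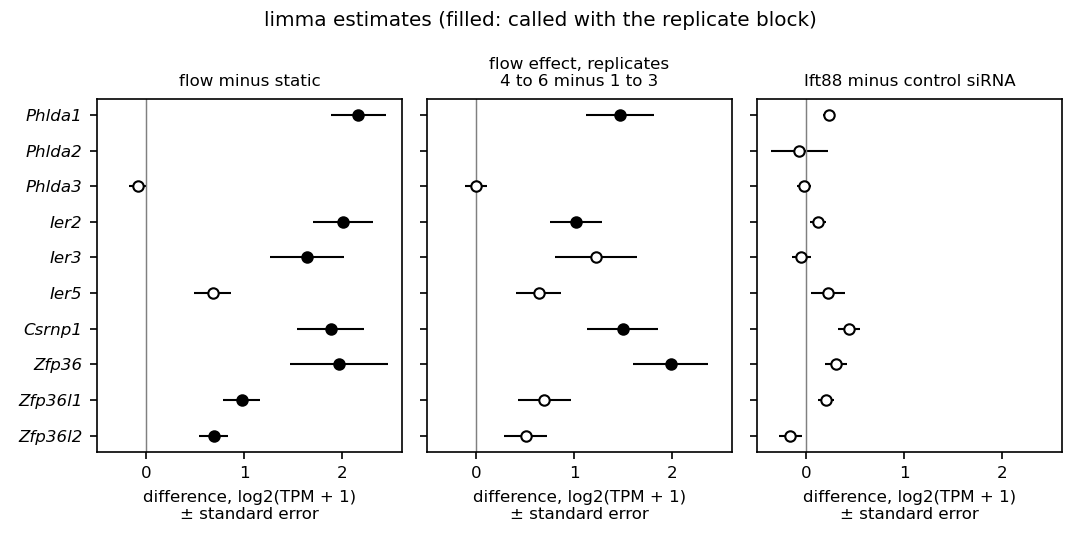
limma estimates on the log2(TPM + 1) scale for each member tested, with bars of 1 standard error from the fits without the replicate block, for flow against static, for the flow effect in replicates 4 to 6 minus 1 to 3, and for Ift88 siRNA against control siRNA. Filled points were called with the replicate block, 7, 4 and 0 members in the 3 panels.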

How the data were processed

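RNA-seq libraries of DC2 cells were compared as 6 flow against 6 static and 4 Ift88 siRNA against 4 control siRNA, grouped by their titles. The authors deposited TPM in 1 table per experiment. Per the study's methods and processing notes, reads were quality-checked (FastQC 0.11.8, MultiQC 1.8), trimmed (Trimmomatic in the methods, fastp 0.20.0 in the notes), assigned to Ensembl transcripts with kallisto 0.46.2 and summed to genes with tximport. TPM hold no counts, so count tests could not be applied, and the relative log expression (median-of-ratios) scaling named in the methods was applied to TPM only as an alternative. Directional libraries were made, and kallisto's strand setting is not given in the sources used here.

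From the deposited TPM, log2(TPM + 1) was fitted with limma 3.58.1 (trend) in R 4.3.3 on genes averaging 1 TPM or more in the table, and p-values were adjusted over all of them (Benjamini-Hochberg). The procedure was tested on simulated data. Same-numbered flow and static libraries correlated in their deviations from group means (0.294, 0.463, 0.425, 0.468, 0.662 and 0.600, each over 0.1), and libraries were therefore treated as paired by number, although a replicate 3 library correlated more with another number (0.509) and replicate 1 nearly as much (0.263). The methods name no pairing, so the fit without the block comes first. Tables and plots were made in Python 3.11.15 (matplotlib 3.10.9, pandas 2.3.3, numpy 2.4.6). Alternatives covered the filter, pseudocount, scaling, library weights, block, fold threshold, each library left out, replicate sets and the label of flow replicate 6.

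Members, lists, replicate sets and tests were chosen with earlier results of these data known. All members are described. Other genes are named when called in a list, else the 2 with the largest absolute change, and the 1 gene most correlated with each member. After silencing, list genes that passed the adjusted p alone are named too. A protein comparison was planned and not run. Gene models are GENCODE M21 on GRCm38, older than the authors' annotation.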

Additional observations from a re-analysis of the deposited data

Results flagged for a closer look

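Phlda2 in flow replicate 4 stood apart from the other flow libraries, at 1.36 TPM with the next highest at 0.241 TPM. It was 1 sample of this kind in 40 groups of libraries examined, and chance sets apart about 1 group in 20.

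The flow effect differed between replicates 4 to 6 and replicates 1 to 3 for 4 members in the limma fit with the replicate block. These sets were named in an earlier description of the same libraries, so the test is not independent of it. The difference, on the log2(TPM + 1) scale, was 1.99 for Zfp36, 1.495 for Csrnp1, 1.47 for Phlda1 and 1.02 for Ier2. All 4 had larger differences in each of pairs 4, 5 and 6 than in any of pairs 1 to 3. None was called in the main fit, which has no block. Among other fits without the block, 1 member (of 8 genes) was called with library weights and 3 (of 34 genes) without flow replicate 4.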

How the results depend on the processing

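The number of members called under flow changed with the filter, scaling, weights, pairing and single libraries, while the direction of the 8 higher members held under all 30 alternatives. Members and genes called under flow (2 and 12) became 0 and 2 with no filter, 4 and 28 with median-of-ratios scaling (which moved the median of all genes from -0.026 to 0.002), 8 and 86 with library weights, 7 and 68 with the replicate block, 0 and 0 with flow replicate 6 counted as static, 0 and 5 within replicates 1 to 3, and 6 and 56 within replicates 4 to 6. With the block, an alternative added afterwards, they were 6 and 52 within replicates 1 to 3 and 8 and 148 within replicates 4 to 6. Leaving out 1 library gave 1 to 8 members and 5 to 87 genes, the highest without flow replicate 2. With the block and pair 1, 2, 3, 4, 5 or 6 left out, also added afterwards, genes called numbered 8, 193, 51, 38, 34 and 41. The cause of these shifts was not tested.

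After silencing, 0 members were called under any alternative. The genes called (25) became 6 with no filter, 48 with library weights, 71 by adjusted p alone, 44 with the replicate block and 11 to 23 with 1 library left out. The siRNA replicate numbers share only a number (correlations 0.0464, 0.00276, 0.259 and 0.176), and with the block Csrnp1 passed the adjusted p alone (limma adjusted p = 0.0247). For the difference between replicate sets, 0 members and 0 genes called became 1 and 8 with library weights, 4 and 18 with the block, and 0 to 3 and 0 to 34 with 1 library left out, the highest without flow replicate 4.

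Values near 0 changed sign. Phlda3 under flow was 0.018 with flow replicate 6 counted as static, and its set difference was 0.067 with scaling and -0.060 to 0.065 with 1 library left out. With Ift88 siRNA, Phlda2 was 0.30 with library weights and -0.41 to 0.14 with 1 library left out, Phlda3 -0.078 to 0.021 and Ier3 -0.12 to 0.053. TPM leave the depth, and so the counting error, unknown.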
